A study of Homo sapiens with 9 samples.

Results

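The genes described here are 42 genes of autophagy and the lysosome, chosen by name from the 17083 genes of the deposited table. They comprise 4 genes of the initiation kinase complex, 4 of the phosphatidylinositol 3-kinase complex, 4 of lipid transfer and phosphoinositide binding, 4 of the conjugation machinery, 4 of the ATG8 family, 3 cargo receptors, 3 lysosomal membrane proteins, 8 lysosomal enzymes, 5 proton pump subunits and 3 transcription factors of the TFEB family. All 42 were in the table and passed the filter on low counts, as did 12924 genes in all. Polyadenylated RNA was sequenced from HEK293T, a human embryonic kidney cell line of unaltered genotype per the labels, in 3 groups of 3 libraries that the submitters call biological replicates. One group overexpressed PLK2, a polo-like kinase. Another overexpressed PLK2(D223N), in which a residue of the kinase domain is replaced. The Vector group received a FLAG vector in place of either. The sources used here give no dose, no time after delivery and no share of cells that took up a construct. The comparisons ask which transcripts differ with PLK2 and which of these differences are seen with the substituted form.

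Autophagy encloses cytoplasm in a double membrane, the autophagosome, and delivers it to the lysosome for breakdown. The ULK kinase complex starts the process, a lipid kinase complex marks the site, and a conjugation system related to that of ubiquitin attaches ATG8 proteins to the growing membrane, where cargo receptors bind them. Lysosomal enzymes work in the acid interior that the proton pump maintains, and TFEB, TFE3 and MITF are transcription factors known to bind E-boxes (the bases CACGTG) near the starts of many lysosomal genes.

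Library totals ran from 14288165 to 16510186 estimated counts. PLK2 RNA followed the labels, at 23744 ± 2384 CPM (counts scaled to a common library total, here by TMM) in PLK2 libraries, 12358 ± 1650 CPM in PLK2(D223N) libraries and 3.42 ± 0.637 CPM in Vector libraries (SD, n = 3 each). The PLK2 and PLK2(D223N) constructs were thus not at matched RNA levels, with a log2 difference of 0.94. Vector replicate 1 stood apart. The chi-square per gene between it and the other Vector libraries was 18.06 and 10.95, against 1.63 to 2.83 for the 7 other pairs within a group. Marker sums were 534 to 575, 559 to 566 and 553 to 631 CPM for 7 HEK293T markers in PLK2, PLK2(D223N) and Vector libraries. They were at most 2.86 CPM for the 4 macrophage and microglia markers in the table, at most 11.2 CPM for 4 fibroblast markers and at most 0.872 CPM for 4 endothelial markers, none of which was at 0 in all libraries. Sums for 4 epithelial markers were 66.4 to 67.2, 65.4 to 68.3 and 65.9 to 76.6 CPM.

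The 42 transcripts differed little between the groups. In the model fitted to all 9 libraries (edgeR quasi-likelihood test, Benjamini-Hochberg adjustment over all genes tested), no member passed an adjusted p of 0.05. The 3 transcripts for cargo receptors, SQSTM1, NBR1 and OPTN, stood higher in every PLK2 library than in every PLK2(D223N) and Vector library, as did 4.78% of all genes tested. Their values in PLK2(D223N) libraries overlapped those in Vector libraries. These 3, with RB1CC1, MAP1LC3B and NEU1, passed the test as higher in PLK2 than in PLK2(D223N) when the model held those 6 libraries alone. GAA passed as lower, which made 7 of 42 members, against 3.92% of all genes. Without PLK2(D223N) replicate 2 there were 3 members, against 2.18% of genes. The members were chosen with earlier results of these data known.

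The level of each gene was compared per length, in TPM as deposited, which scales counts by transcript length so that a library sums to a fixed total. GLA, the lysosomal alpha-galactosidase, was the highest of the 42, at 225 ± 1.94 TPM in PLK2, 230 ± 6.49 TPM in PLK2(D223N) and 236 ± 8.03 TPM in Vector libraries (SD, n = 3 each). Over all 9 libraries the next levels were 172 TPM for GABARAP, 168 TPM for GABARAPL2, 152 TPM for MAP1LC3B, 144 TPM for the cysteine protease CTSL and 129 TPM for SQSTM1. GABARAP and GABARAPL2 overlapped in their spread in PLK2, PLK2(D223N) and Vector libraries alike, so their order was not resolved. TFEB was the lowest, at 2.19 ± 0.276, 2.24 ± 0.347 and 2.23 ± 0.168 TPM in PLK2, PLK2(D223N) and Vector libraries. It rested on 29 to 44 counts per library, and the next lowest, WIPI1, on 44 to 71, so neither allows a small difference to be seen. Within its family TFE3 was the highest, at a mean of 26.3 TPM over 9 libraries, followed by MITF at 6.73 TPM. The 42 transcripts together made up 2481 ± 38.5 TPM in PLK2, 2477 ± 23.5 TPM in PLK2(D223N) and 2478 ± 35.6 TPM in Vector libraries.

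**Figure D1:**
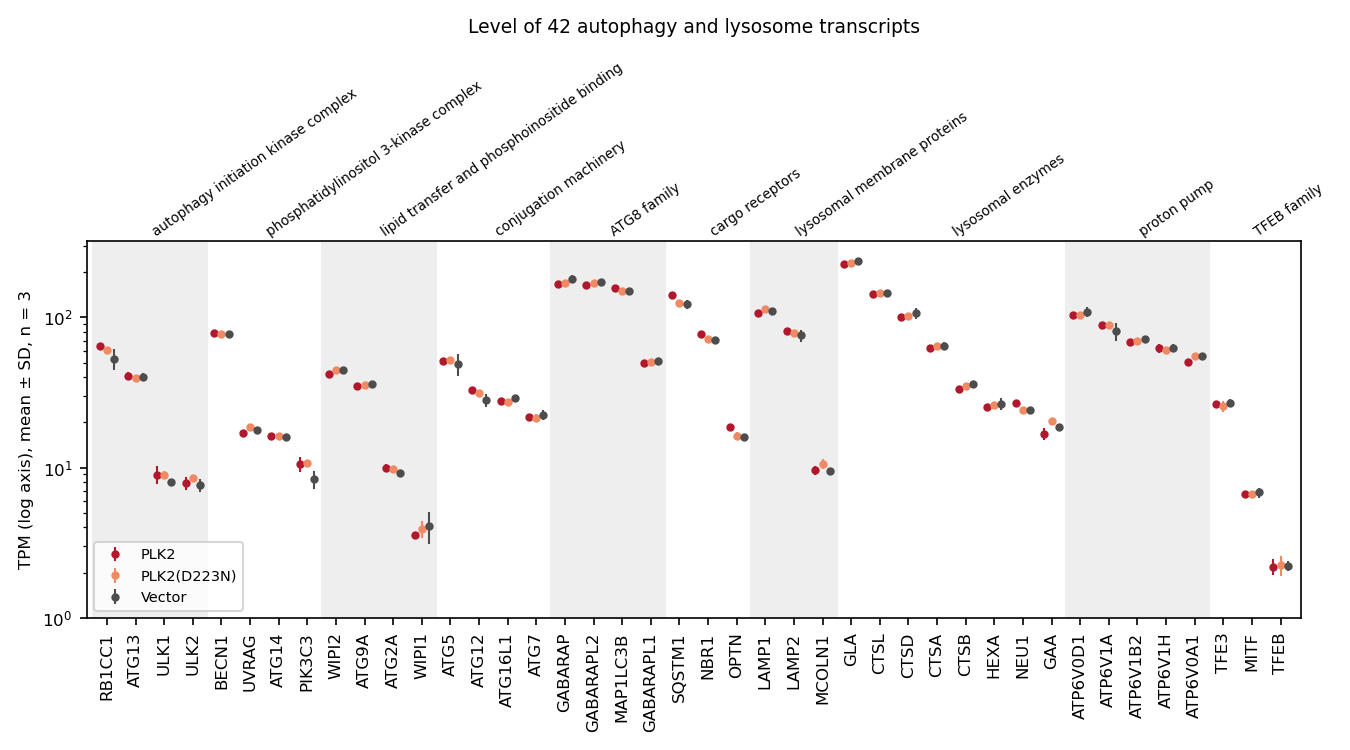
Level in TPM (log axis) of the 42 transcripts, grouped by role, in PLK2, PLK2(D223N) and Vector libraries, where points are means and bars are SD over 3 libraries. The means run from 2.22 TPM for TFEB to 230 TPM for GLA over all 9 libraries, and the 3 groups lie close together for most genes.

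Summed by role, the cargo receptors were the group of transcripts whose PLK2 libraries stood clear of the rest. Their summed level was 238, 234 and 237 TPM in the PLK2 libraries, 217, 209 and 210 TPM in the PLK2(D223N) libraries and 214, 203 and 208 TPM in the Vector libraries. The sum for the initiation kinase complex was 122 ± 4.41 TPM in PLK2, 117 ± 1.41 TPM in PLK2(D223N) and 109 ± 6.69 TPM in Vector libraries. Lysosomal enzymes summed to 634 ± 7.47, 645 ± 4.89 and 657 ± 24.6 TPM, proton pump subunits to 373 ± 8.26, 378 ± 5.66 and 379 ± 13.3 TPM, and the ATG8 family to 537 ± 13.6, 538 ± 13.5 and 552 ± 15.4 TPM in PLK2, PLK2(D223N) and Vector libraries. These 3 sums overlapped between the PLK2 and Vector libraries. In bulk RNA, a difference in the number of cells that express a gene and in the RNA per cell cannot be told apart.

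In the comparison of PLK2 with PLK2(D223N), no member was called by edgeR with all 9 libraries, where 0.162% of the 12924 genes tested were called. DESeq2 called no member either, and 0.286% of genes. At an unadjusted p below 0.05, 6 members were higher and 1 was lower, against 2.98% and 3.06% of all genes. The median log2 fold change of the 42 was 0.04, against 0.00 over all genes, and 33 of them were above 0, against 6190 of 12924 genes. On the TPM scale 18 of the 42 were above 0, with medians of -0.01 for the members and -0.05 for all genes. In 16 members the libraries of the 2 groups did not overlap, with PLK2 above in 13 and below in 3, against 20.5% of all genes. The 95% intervals of the 42 log2 fold changes lay between -0.49 and 0.43, so larger differences fall outside every interval.

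With the Vector libraries left out of the model, 502 of 12810 genes (3.92%) were called between PLK2 and PLK2(D223N), and 7 of 42 members (16.7%) were among them, 6 higher and 1 lower. The log2 fold changes of these 7 were the same to 2 decimals as with 9 libraries, and their standard errors lay between 0.03 and 0.06, against 0.05 to 0.07 with 9 libraries. With only Vector replicate 1 left out, 2.43% of genes and the same 7 members were called. Leaving out 1 of the 6 libraries at a time called between 1.73% of genes (without PLK2 replicate 2) and 6.67% (without PLK2 replicate 3), and 2.04, 2.46, 2.18 and 2.20% in the other 4 refits. SQSTM1, NBR1 and RB1CC1 were called in all 6 refits, OPTN in 5, MAP1LC3B in 4, NEU1 in 3 and GAA in 3. Without PLK2(D223N) replicate 2, 3 members were called, against 7 with all 6 libraries. DESeq2 on the 6 libraries gave an adjusted p to 7346 genes, 37 of the members among them, and called 2.67% of these genes and SQSTM1, NBR1, RB1CC1 and MAP1LC3B. With trends with GC content and length removed in those 6 libraries, 2.88% of genes were called, GAA was not, and the other 6 members were.

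Cargo receptors link ubiquitin-tagged cargo to ATG8 proteins, and SQSTM1, also called p62, is itself degraded by autophagy. SQSTM1 (NCBI gene 8878, GRCh38 chromosome 5, 179806398 to 179838078, plus strand) had 202, 202 and 198 CPM in PLK2 libraries, 176, 166 and 171 CPM in PLK2(D223N) libraries and 197, 159 and 172 CPM in Vector libraries. All 3 PLK2 libraries lay above the other 6, though Vector replicate 1 came close to the lowest of them. The log2 fold change of PLK2 over PLK2(D223N) was 0.23 (SE 0.07, 95% interval 0.09 to 0.37, edgeR adjusted p = 0.395 with 9 libraries and 4.08e-08 with 6). Over Vector it was 0.19 (SE 0.07, edgeR adjusted p = 0.200), and without Vector replicate 1 it was 0.28 (SE 0.04, edgeR adjusted p = 5.60e-06). In PLK2 vs Vector, 2 of 18 alternatives called SQSTM1. PLK2(D223N) over Vector gave -0.04 (SE 0.07, edgeR adjusted p = 0.824).

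NBR1, a receptor that works with SQSTM1 in clearing protein aggregates, lies on chromosome 17 (43170481 to 43211689, plus strand). It had 194, 193 and 184 CPM in PLK2 libraries, 169, 173 and 169 CPM in PLK2(D223N) libraries and 172, 173 and 172 CPM in Vector libraries. The other 6 libraries lay together below the PLK2 libraries. PLK2 over PLK2(D223N) gave a log2 fold change of 0.16 (SE 0.05, edgeR adjusted p = 0.451 with 9 libraries and 0.000206 with 6). Over Vector it was 0.14 (SE 0.05, edgeR adjusted p = 0.186), and 0.14 with an edgeR adjusted p of 0.0266 without Vector replicate 1. That was the 1 of 18 alternatives that called NBR1 in PLK2 vs Vector.

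OPTN, optineurin, a receptor for damaged mitochondria and bacteria, lies on chromosome 10 (13099449 to 13138308, plus strand). It had 32.9, 31.9 and 33.0 CPM in PLK2 libraries, 28.5, 25.7 and 28.1 CPM in PLK2(D223N) libraries and 27.7, 28.0 and 27.8 CPM in Vector libraries. Again the PLK2 libraries were the 3 highest of 9. On the log2 scale PLK2 differed by 0.25 from PLK2(D223N) (SE 0.06, edgeR adjusted p = 0.251 with 9 libraries and 0.00581 with 6) and by 0.23 from Vector (SE 0.06, edgeR adjusted p = 0.12). PLK2(D223N) over Vector gave -0.02 for OPTN and for NBR1 (SE 0.06 and 0.05, edgeR adjusted p = 0.922 and 0.910).

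Exons of 8 members overlap those of another gene in the table in GENCODE release 29, and the sources used here do not say whether the counting used strand. SQSTM1 shares bases with MRNIP on the opposite strand, which averaged 5.90 CPM in PLK2, 5.70 CPM in PLK2(D223N) and 6.06 CPM in Vector libraries. OPTN shares bases with CCDC3 on the opposite strand, at 26.7, 26.4 and 29.5 CPM, and ATG12 with AP3S1 on the opposite strand, at 67.3, 63.3 and 65.5 CPM in PLK2, PLK2(D223N) and Vector libraries. None of these 3 neighbours was called in any of the 3 comparisons with 9 libraries. Reads of such pairs may not be told apart.

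**Figure D2:**
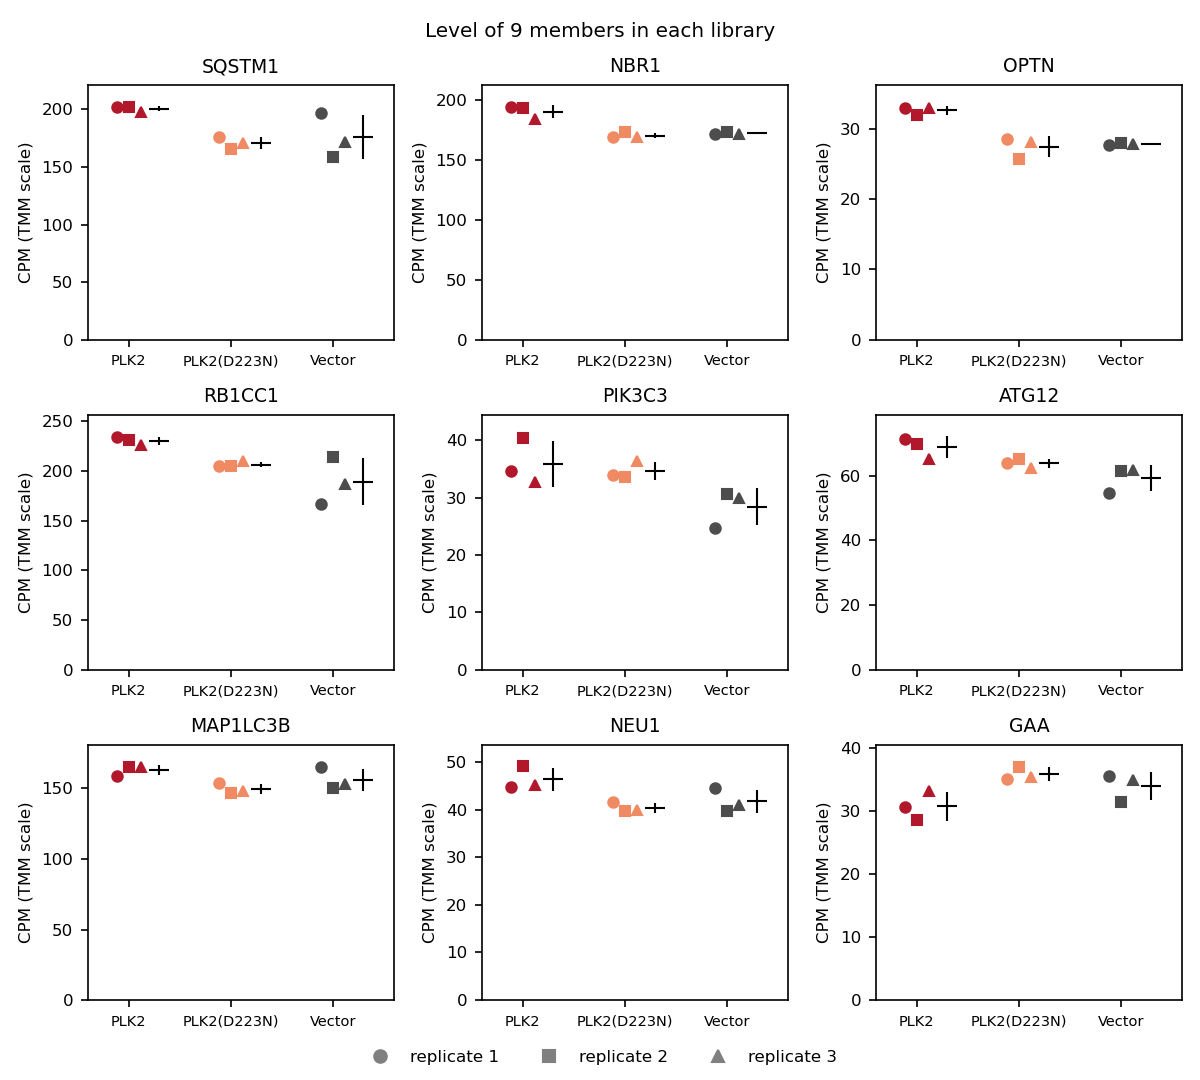
Level in CPM on the TMM scale of 9 members in each library, with replicates 1, 2 and 3 as circles, squares and triangles, beside the mean and SD of each group of 3. For SQSTM1, NBR1, OPTN, RB1CC1, ATG12 and NEU1 the 3 PLK2 points lie above the other 6. For SQSTM1, PIK3C3, ATG12, MAP1LC3B and NEU1 Vector replicate 1 lies apart from the other Vector libraries, and for RB1CC1 it is the lowest library.

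The initiation complex had its largest difference at RB1CC1, the scaffold protein FIP200 that holds the ULK kinases (NCBI gene 9821, chromosome 8). RB1CC1 had 234, 231 and 226 CPM in PLK2 libraries, 205, 205 and 210 CPM in PLK2(D223N) libraries and 167, 214 and 187 CPM in Vector libraries. PLK2 libraries were the 3 highest, while the PLK2(D223N) values fell within the range of the Vector values. PLK2 over PLK2(D223N) gave a log2 fold change of 0.15 (SE 0.07, edgeR adjusted p = 0.822 with 9 libraries and 0.000166 with 6). Over Vector it was 0.28 (SE 0.07, 95% interval 0.13 to 0.43, edgeR adjusted p = 0.0926, DESeq2 adjusted p = 0.0316), and it was 0.15 once trends with GC content and length were removed (edgeR adjusted p = 0.0289). Without Vector replicate 1 it was 0.20 (SE 0.04, edgeR adjusted p = 0.00196), and without Vector replicate 2 it was 0.38 (edgeR adjusted p = 0.000547).

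The kinases themselves did not pass the test. ULK2, the lowest of its complex per length, had 18.9, 20.3 and 22.0 CPM in PLK2 libraries, 20.2, 22.3 and 22.1 CPM in PLK2(D223N) libraries and 18.1, 20.7 and 20.8 CPM in Vector libraries, which overlapped. ULK1 averaged 25.2 ± 3.13 CPM in PLK2, 23.5 ± 1.29 CPM in PLK2(D223N) and 22.3 ± 1.39 CPM in Vector libraries (SD, n = 3 each), with PLK2 replicate 3 the highest at 28.8 CPM. ATG13, which binds the kinases and RB1CC1, averaged 88.1 ± 3.66, 82.5 ± 3.39 and 87.2 ± 7.61 CPM in PLK2, PLK2(D223N) and Vector libraries.

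In the phosphatidylinositol 3-kinase complex, the catalytic subunit PIK3C3 (VPS34) was higher on average with either form of PLK2 than with Vector. It had 34.7, 40.4 and 32.7 CPM in PLK2 libraries, 34.0, 33.6 and 36.4 CPM in PLK2(D223N) libraries and 24.7, 30.7 and 29.9 CPM in Vector libraries. All 6 libraries with a PLK2 construct lay above the 3 Vector libraries. The log2 fold change was 0.34 for PLK2 over Vector (SE 0.09, 95% interval 0.15 to 0.53, edgeR adjusted p = 0.109) and 0.29 for PLK2(D223N) over Vector (SE 0.09, 0.10 to 0.48, edgeR adjusted p = 0.574). These 2 comparisons share the Vector libraries. Without Vector replicate 1 the values were 0.25 for PLK2 (edgeR adjusted p = 0.0469) and 0.20 for PLK2(D223N) (edgeR adjusted p = 0.392), and without Vector replicate 2 they were 0.40 and 0.35 (edgeR adjusted p = 0.00948 and 0.0450). With trends with GC content and length removed they were 0.21 and 0.17 (edgeR adjusted p = 0.104 and 0.268). PLK2 and PLK2(D223N) differed by 0.05 (95% interval -0.14 to 0.24).

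UVRAG, a regulatory subunit of that lipid kinase, ran the other way. It had 39.6, 37.2 and 37.3 CPM in PLK2 libraries, 40.5, 42.3 and 40.0 CPM in PLK2(D223N) libraries and 41.1, 39.7 and 41.6 CPM in Vector libraries, so that the PLK2 libraries were the 3 lowest. Its log2 fold change was -0.11 over PLK2(D223N) (SE 0.06, edgeR adjusted p = 0.871) and -0.10 over Vector (SE 0.06, edgeR adjusted p = 0.383). BECN1, the core subunit Beclin 1, had 77.4, 78.3 and 75.4 CPM in PLK2 libraries, 74.1, 69.1 and 75.0 CPM in PLK2(D223N) libraries and 75.4, 74.1 and 76.6 CPM in Vector libraries. The BECN1 groups lay close together, and ATG14, the subunit that directs the complex to autophagy, had log2 fold changes of 0.05 over PLK2(D223N) and 0.01 over Vector.

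No gene of lipid transfer and phosphoinositide binding was called. ATG2A, which moves lipid into the growing membrane, had 32.4, 34.3 and 35.0 CPM in PLK2 libraries, 32.1, 32.3 and 31.2 CPM in PLK2(D223N) libraries and 33.3, 29.7 and 30.3 CPM in Vector libraries. ATG9A, a membrane protein that seeds autophagosomes, had 69.6, 65.8 and 67.3 CPM in PLK2 libraries, 63.5, 68.0 and 67.5 CPM in PLK2(D223N) libraries and 74.8, 68.3 and 66.0 CPM in Vector libraries. Their log2 fold changes of PLK2 over Vector were 0.12 and -0.04 (SE 0.07 and 0.06, edgeR adjusted p = 0.347 and 0.715). WIPI2, which recruits the conjugation machinery, had 98.7, 94.9 and 99.0 CPM in PLK2 libraries, 100, 97.4 and 101 CPM in PLK2(D223N) libraries and 114, 97.5 and 99.3 CPM in Vector libraries, with Vector replicate 1 alone above the rest. Its low relative WIPI1 had 3.29, 3.27 and 3.01 CPM in PLK2 libraries, 2.98, 3.46 and 3.87 CPM in PLK2(D223N) libraries and 4.22, 4.16 and 2.70 CPM in Vector libraries, a range as wide within Vector as between the groups.

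In the conjugation machinery, ATG12, the ubiquitin-like protein joined to ATG5, had 71.4, 69.9 and 65.1 CPM in PLK2 libraries, 64.0, 65.0 and 62.4 CPM in PLK2(D223N) libraries and 54.7, 61.4 and 61.6 CPM in Vector libraries. The 3 groups did not overlap, in that order, though the lowest PLK2 and the highest PLK2(D223N) library nearly tied, at 65.1 and 65.0 CPM. Taken singly, PLK2 libraries lay above all PLK2(D223N) libraries for 11.0% of all genes, and PLK2(D223N) libraries above all Vector libraries for 6.66%. The share of genes with the full order seen for ATG12 is not reported here. Its log2 fold change was 0.22 for PLK2 over Vector (SE 0.06, edgeR adjusted p = 0.126), 0.11 for PLK2(D223N) over Vector (SE 0.06, edgeR adjusted p = 0.592) and 0.11 for PLK2 over PLK2(D223N) (SE 0.06, edgeR adjusted p = 0.883). With trends with GC content and length removed these were 0.09, 0.01 and 0.08 (edgeR adjusted p = 0.334, 0.955 and 0.696), and without Vector replicate 2 the first was 0.24 (edgeR adjusted p = 0.0223). ATG5 had 59.3, 64.7 and 58.3 CPM in PLK2 libraries, 59.1, 56.4 and 61.1 CPM in PLK2(D223N) libraries and 50.3, 64.0 and 58.6 CPM in Vector libraries, with no such order of the groups. ATG16L1, which docks the ATG12-ATG5 pair on the membrane, had 45.1, 48.9 and 44.0 CPM in PLK2 libraries, 42, 42.8 and 46.6 CPM in PLK2(D223N) libraries and 52.7, 45.8 and 46.8 CPM in Vector libraries. ATG7, the activating enzyme of the system, had 30.5, 30.8 and 29.8 CPM in PLK2 libraries, 28.2, 29.3 and 30.1 CPM in PLK2(D223N) libraries and 33.3, 30.4 and 29.3 CPM in Vector libraries. Values of ATG5, ATG16L1 and ATG7 overlapped between the groups in each comparison.

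Of the ATG8 family, MAP1LC3B, the LC3 protein used as the standard marker of autophagosomes, had 159, 165 and 165 CPM in PLK2 libraries, 154, 147 and 148 CPM in PLK2(D223N) libraries and 165, 150 and 153 CPM in Vector libraries. PLK2 libraries lay above PLK2(D223N) libraries but not above all Vector libraries. The log2 fold change of PLK2 over PLK2(D223N) was 0.12 (SE 0.05, edgeR adjusted p = 0.779 with 9 libraries and 0.00889 with 6), and over Vector it was 0.06 (SE 0.05, edgeR adjusted p = 0.544). MAP1LC3B2, a near-identical copy whose reads may be split with those of MAP1LC3B, averaged 0.570 CPM in PLK2, 1.03 CPM in PLK2(D223N) and 1.01 CPM in Vector libraries, so the division of reads between them is uncertain. GABARAP had 93.5, 96.0 and 94.2 CPM in PLK2 libraries, 92.9, 94.6 and 91.8 CPM in PLK2(D223N) libraries and 114, 94.9 and 96.9 CPM in Vector libraries. GABARAPL1 had 44.8, 42 and 43.4 CPM in PLK2 libraries, 43.6, 43.3 and 41.8 CPM in PLK2(D223N) libraries and 48.4, 40.9 and 44.9 CPM in Vector libraries. In both of these relatives, which work later than LC3 in closing autophagosomes, Vector replicate 1 was the highest library. Log2 fold changes of PLK2 over PLK2(D223N) were 0.02 for GABARAP, 0.02 for GABARAPL1 and 0.01 for GABARAPL2.

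Lysosomal genes were also examined for the E-box that TFEB and its relatives bind. RefSeq promoter windows (GRCh38.p14, 250 bases before to 50 after the transcript start) were matched by NCBI gene identifier for 34 of the 42 members. CACGTG reads the same on both strands, and it was found in windows of 8 of the 34 members (23.5%), against 12.7% of the 10613 tested genes with a window. In all 8 the E-box was flanked as TCACGTG on one strand or the other, the form preferred by the TFEB family, which contains the shorter motif and was found in 7.26% of the tested genes. Of the carriers, 7 belonged to the 10 lysosomal membrane proteins, enzymes and pump subunits with a window, and 1, ATG14, to the 21 genes of autophagy machinery and cargo receptors. None of the 3 TFEB family genes held it. The matches are descriptions of the sequence, and binding was not measured.

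The 200 bases before the start are shown for 4 carriers, 5′ to 3′ on the strand of the gene, with the E-box and a flanking T or A of its longer form in capitals. NEU1 (chr6:31862822-31863021, minus strand) and GAA (chr17:80101381-80101580, plus strand) are the carriers called between PLK2 and PLK2(D223N) in the 6 libraries, in opposite directions. LAMP1 (chr13:113297039-113297238, plus strand) holds the most copies, 5 in this stretch and 1 more across the start, and ATG14 (chr14:55411831-55412030, minus strand) is the carrier outside the lysosome.
NEU1: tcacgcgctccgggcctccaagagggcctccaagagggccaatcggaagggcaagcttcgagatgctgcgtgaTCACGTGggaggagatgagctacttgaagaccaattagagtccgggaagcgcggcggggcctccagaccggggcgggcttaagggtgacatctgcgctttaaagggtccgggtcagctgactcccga
GAA: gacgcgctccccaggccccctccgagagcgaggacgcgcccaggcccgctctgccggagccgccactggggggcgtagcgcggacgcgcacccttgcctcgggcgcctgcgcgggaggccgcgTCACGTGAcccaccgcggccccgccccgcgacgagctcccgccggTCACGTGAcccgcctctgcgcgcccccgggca
LAMP1: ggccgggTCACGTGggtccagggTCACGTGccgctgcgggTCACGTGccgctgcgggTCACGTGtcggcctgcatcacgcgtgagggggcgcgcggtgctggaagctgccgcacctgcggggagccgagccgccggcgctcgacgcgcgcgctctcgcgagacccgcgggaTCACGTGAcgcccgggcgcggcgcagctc
ATG14: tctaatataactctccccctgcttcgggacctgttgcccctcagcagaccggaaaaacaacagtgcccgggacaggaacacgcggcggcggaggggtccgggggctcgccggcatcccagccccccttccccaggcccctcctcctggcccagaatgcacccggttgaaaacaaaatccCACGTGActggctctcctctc

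**Figure D3:**
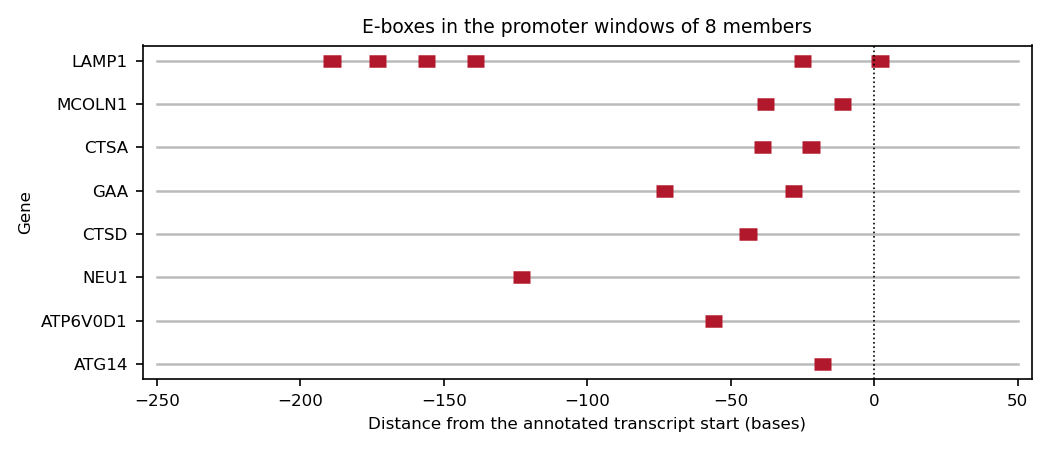
Position of each E-box (red marks, drawn to scale) in the windows of the 8 members that hold one, against the distance in bases from the annotated transcript start (dotted line). LAMP1 holds 6, MCOLN1, CTSA and GAA hold 2 each, and CTSD, NEU1, ATP6V0D1 and ATG14 hold 1 each.

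The 8 carriers had a median log2 fold change of -0.05 for PLK2 over Vector, -0.05 for PLK2(D223N) over Vector and 0.02 for PLK2 over PLK2(D223N). The 26 members with a window and no E-box had medians of -0.02, -0.06 and 0.05 in the same comparisons.

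NEU1, the sialidase that removes sialic acid in the lysosome, holds an E-box from base -126 to -121. It had 44.9, 49.2 and 45.2 CPM in PLK2 libraries, 41.7, 39.8 and 39.9 CPM in PLK2(D223N) libraries and 44.5, 39.8 and 41.0 CPM in Vector libraries. The PLK2 libraries were the 3 highest, the lowest of them close to Vector replicate 1. Its log2 fold change for PLK2 was 0.20 over PLK2(D223N) (SE 0.06, edgeR adjusted p = 0.543 with 9 libraries and 0.0124 with 6) and 0.15 over Vector (SE 0.06, edgeR adjusted p = 0.263). GAA, the acid glucosidase that breaks down glycogen and is deficient in Pompe disease, had 30.6, 28.6 and 33.2 CPM in PLK2 libraries, 35.1, 37.1 and 35.5 CPM in PLK2(D223N) libraries and 35.6, 31.4 and 34.9 CPM in Vector libraries. Its PLK2 libraries lay below the PLK2(D223N) libraries and overlapped the Vector libraries. Its log2 fold change was -0.22 over PLK2(D223N) (SE 0.07, edgeR adjusted p = 0.555 with 9 libraries and 0.0139 with 6) and -0.14 over Vector (SE 0.07, edgeR adjusted p = 0.328).

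The remaining 6 enzymes had log2 fold changes between -0.01 and 0.04 for PLK2 over PLK2(D223N), and between -0.12 and -0.02 for PLK2 over Vector. GLA had 128, 129 and 126 CPM in PLK2 libraries, 122, 128 and 129 CPM in PLK2(D223N) libraries and 144, 126 and 130 CPM in Vector libraries. The cysteine protease CTSB had 65.3, 66.3 and 64.7 CPM in PLK2 libraries, 66.4, 65.1 and 66.8 CPM in PLK2(D223N) libraries and 77.4, 68.0 and 67.9 CPM in Vector libraries. Both groups with a PLK2 construct lay below all Vector libraries for CTSB, with log2 fold changes of -0.12 for PLK2 and -0.11 for PLK2(D223N) (SE 0.06 each, edgeR adjusted p = 0.323 and 0.582), which were -0.05 and -0.04 without Vector replicate 1. Taken singly, PLK2 libraries lay below all Vector libraries for 10.1% of all genes, and PLK2(D223N) libraries for 7.21%.

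Of the lysosomal membrane proteins, LAMP1 and LAMP2 are the abundant glycoproteins that line the lysosome. LAMP1 had 124, 132 and 128 CPM in PLK2 libraries, 133, 128 and 127 CPM in PLK2(D223N) libraries and 144, 126 and 130 CPM in Vector libraries. LAMP2 had 183, 188 and 194 CPM in PLK2 libraries, 180, 178 and 173 CPM in PLK2(D223N) libraries and 164, 183 and 183 CPM in Vector libraries. Vector replicate 1 was the highest library for LAMP1 and the lowest for LAMP2. The log2 fold change of LAMP2 was 0.09 for PLK2 over PLK2(D223N) (SE 0.06, edgeR adjusted p = 0.895) and 0.09 over Vector (SE 0.06, edgeR adjusted p = 0.385), and the value over Vector was -0.03 with trends with GC content and length removed. MCOLN1, the calcium channel of the lysosome, had 10.4, 9.42 and 8.97 CPM in PLK2 libraries, 10.1, 10.9 and 9.59 CPM in PLK2(D223N) libraries and 9.15, 9.50 and 9.65 CPM in Vector libraries, which overlapped.

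The proton pump has a membrane part (V0) and a catalytic part (V1) that uses ATP. ATP6V0A1, of the membrane part, had 107, 104 and 105 CPM in PLK2 libraries, 112, 108 and 113 CPM in PLK2(D223N) libraries and 126, 113 and 110 CPM in Vector libraries, so the PLK2 libraries were the 3 lowest. The catalytic subunit ATP6V1A had 212, 218 and 217 CPM in PLK2 libraries, 210, 204 and 204 CPM in PLK2(D223N) libraries and 173, 210 and 200 CPM in Vector libraries, so there they were the 3 highest. The log2 fold changes of PLK2 over Vector were -0.15 for ATP6V0A1 and 0.15 for ATP6V1A (SE 0.06 each, edgeR adjusted p = 0.241 and 0.271), and over PLK2(D223N) they were -0.07 and 0.06 (SE 0.06 each, edgeR adjusted p = 0.926 and 0.949). Without Vector replicate 1 the values over Vector were -0.09 and 0.07 (edgeR adjusted p = 0.336 and 0.364). ATP6V0D1, highest of the 5 per length, had 76.9, 79.0 and 74.7 CPM in PLK2 libraries, 76.3, 72.2 and 77.3 CPM in PLK2(D223N) libraries and 91.9, 76.9 and 75.1 CPM in Vector libraries. ATP6V1H, a regulatory subunit of the catalytic part, had 58.6, 61.5 and 63.7 CPM in PLK2 libraries, 56.3, 57.7 and 58.3 CPM in PLK2(D223N) libraries and 63.4, 64.3 and 58.1 CPM in Vector libraries. ATP6V1B2 averaged 98.4 ± 3.90, 96.9 ± 2.05 and 103 ± 4.61 CPM in PLK2, PLK2(D223N) and Vector libraries (SD, n = 3 each).

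The TFEB family was not called in any comparison. TFE3 had 43.4, 44.9 and 43.8 CPM in PLK2 libraries, 45.1, 41.2 and 38.7 CPM in PLK2(D223N) libraries and 50.3, 42.1 and 43.3 CPM in Vector libraries. TFEB had 2.03, 2.44 and 2.45 CPM in PLK2 libraries, 1.80, 2.41 and 2.52 CPM in PLK2(D223N) libraries and 2.62, 2.22 and 2.15 CPM in Vector libraries. The groups overlapped for both. Log2 fold changes of PLK2 over Vector were -0.04 for TFE3, -0.04 for MITF and -0.02 for TFEB, the last with a 95% interval of -0.41 to 0.37. These proteins are regulated largely by their location in the cell, which RNA does not show.

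In PLK2 vs Vector, no member was called by edgeR with 9 libraries, where 0.511% of genes were called, and DESeq2 called RB1CC1 alone, where it called 1.11% of genes. At an unadjusted p below 0.05, 8 members were higher and 1 was lower, against 9.56% and 6.81% of all genes. The median log2 fold change was -0.03, against 0.00 over all genes, and 18 of 42 were above 0, but 28 of 42 were without Vector replicate 1. Libraries of the 2 groups did not overlap for 11 members, with PLK2 above in 8 and below in 3, against 20.1% of all genes. All 3 cargo receptors and all 4 genes of the initiation complex were above 0, while 7 of 8 enzymes and 4 of 5 pump subunits were below 0. Without Vector replicate 1 all 3 cargo receptors were still above 0, but 3 of 4 initiation genes, 5 of 8 enzymes and 3 of 5 pump subunits were above 0, and with trends with GC content and length removed 3 of 8 enzymes were. Without PLK2 replicate 3, 2 of 4 initiation genes were above 0. Of the 8 and 3 members, 7 higher (RB1CC1, ATG12, SQSTM1, NBR1, OPTN, NEU1 and ATP6V1A) and 2 lower (UVRAG and ATP6V0A1) also stood clear of all PLK2(D223N) libraries, which held for 4.78% and 3.29% of all genes.

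In PLK2(D223N) vs Vector, no member was called by edgeR, where 0.0232% of genes were called, nor by DESeq2, where 0.0696% were called. At an unadjusted p below 0.05, PIK3C3 alone was higher and none was lower, against 5.22% and 3.30% of all genes. The median log2 fold change was -0.06, against 0.01 over all genes, and 12 of 42 were above 0. On the TPM scale 21 of 42 were above 0, with medians of 0.00 for the members and 0.05 for all genes. PIK3C3 and ATG12 did not overlap with Vector and were higher, and GABARAP, CTSB and CTSD did not overlap and were lower, 5 in all, against 13.9% of all genes. The 95% intervals of the 42 values lay between -0.48 and 0.48.

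**Figure D4:**
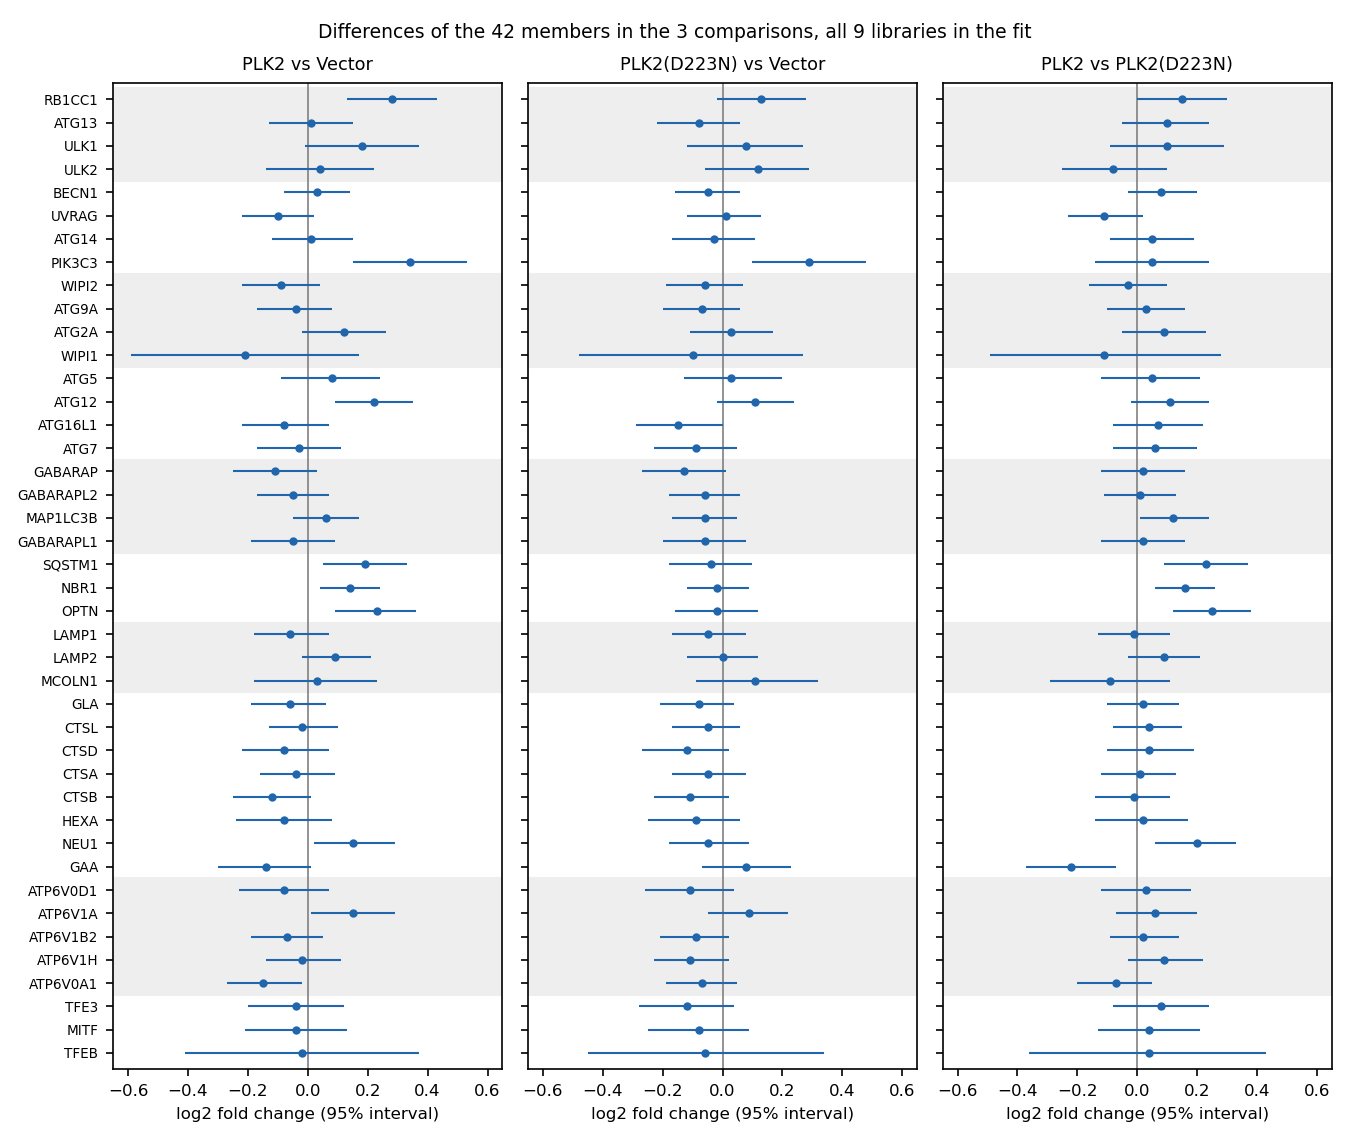
Log2 fold changes (points) with 95% intervals (lines) of the 42 members, grouped by role in shaded and white bands, for PLK2 vs Vector, PLK2(D223N) vs Vector and PLK2 vs PLK2(D223N) with all 9 libraries in the model. The cargo receptors SQSTM1, NBR1 and OPTN lie between 0.14 and 0.25 where PLK2 is compared with either other group, and between -0.04 and -0.02 for PLK2(D223N) vs Vector. On the TPM scale all 3 were above 0 in PLK2(D223N) vs Vector, between 0.02 and 0.04, against a median of 0.05 over all genes.

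Vector replicate 1 moved many members. It was the highest of the 9 libraries for 21 of the 42 and the lowest for 7, against 31.1% of all tested genes in each case. Its log2 difference from the mean of the other Vector libraries ran from -0.29 for PIK3C3 to 0.29 for HEXA. Across the 42 genes this difference correlated with the GC content of the transcript (Pearson r = 0.65, Spearman rho = 0.62), and across 12841 tested genes with a GC value it did so with r = 0.60 and rho = 0.66. These are descriptions across genes of 1 set of libraries, and genes are not independent replicates. Of the 7 members lowest in that library, PIK3C3, ATG5, RB1CC1, ATP6V1A, ATG12 and LAMP2 had transcripts of 37.5 to 40.6% GC and ULK2 one of 46.4%, against a median of 49.6% over the 42. MCOLN1, with a transcript of 62% GC, differed by -0.06.

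Without Vector replicate 1, the comparison of PLK2 with Vector called 2.79% of genes and 4 members, SQSTM1, RB1CC1, NBR1 and PIK3C3, all higher. With the trends with GC content and length removed from all 9 libraries it called 2.95% of genes and 3 members, SQSTM1, RB1CC1 and NEU1, all higher. SQSTM1 then had a log2 fold change of 0.24 (edgeR adjusted p = 0.000605) and NEU1 of 0.19 (edgeR adjusted p = 0.0479). In PLK2 vs PLK2(D223N), the same removal left 0.716% of genes and 2 members called, SQSTM1 at 0.27 (edgeR adjusted p = 0.000193) and NEU1 at 0.22 (edgeR adjusted p = 0.0478). Without Vector replicate 2, which leaves replicate 1 as 1 of 2 Vector libraries, PLK2 vs Vector called 12.7% of genes and 5 members, RB1CC1, PIK3C3, ATG12, ATP6V1A and OPTN. In the same setting PLK2(D223N) vs Vector called 2.66% of genes and 2 members, RB1CC1 and PIK3C3.

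**Figure D5:**
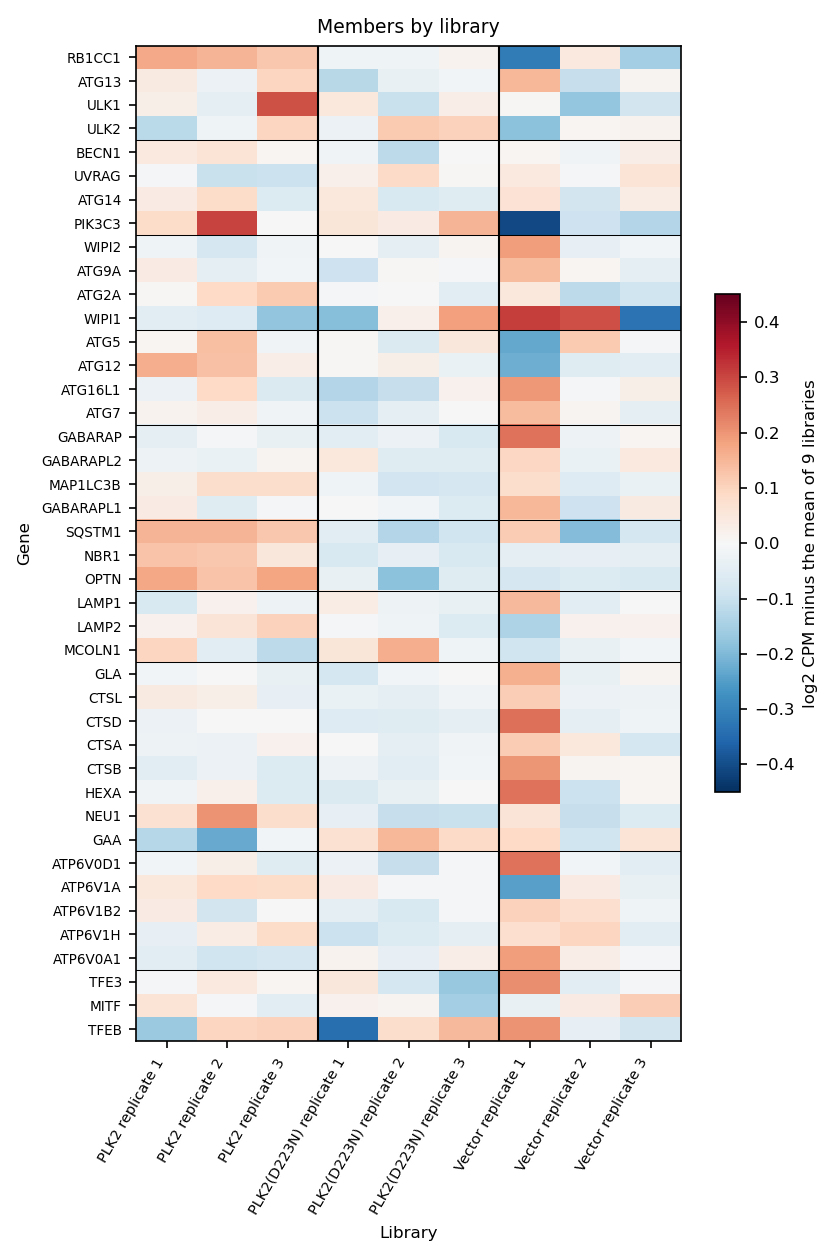
Log2 CPM of each member in each library minus its mean over the 9 libraries, with members grouped by role from RB1CC1 at the top to TFEB at the bottom. SQSTM1, NBR1 and OPTN are high in the 3 PLK2 libraries, and Vector replicate 1 departs from the other Vector libraries in most rows, from -0.29 for PIK3C3 to 0.29 for HEXA against their mean.

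Beyond the 42, 111 further genes of the pathway were in the table, and 105 of them were tested. In PLK2 vs Vector 1 of the 105 was called, against 0.511% of all genes. It was FNIP1, which pairs with the tumour suppressor FLCN in signalling nutrient supply to TFEB and TFE3. FNIP1 had 86.0, 86.3 and 84.8 CPM in PLK2 libraries, 80.8, 71.6 and 76.0 CPM in PLK2(D223N) libraries and 56.9, 71.7 and 70.1 CPM in Vector libraries. Its level rose with PLK2 relative to Vector by 0.37 on the log2 scale (SE 0.08, edgeR adjusted p = 0.0459), and 9 of 18 alternatives called it, with adjusted p-values from 0.000258 to 0.249. FLCN averaged 43.7 ± 2.65 CPM in PLK2, 38.0 ± 2.62 CPM in PLK2(D223N) and 35.5 ± 1.16 CPM in Vector libraries, a log2 difference of 0.30 from Vector (SE 0.07, edgeR adjusted p = 0.0613). RPTOR, a subunit of the nutrient-sensing kinase complex mTORC1, averaged 52.1 ± 2.91, 58.8 ± 0.720 and 62.8 ± 3.14 CPM in PLK2, PLK2(D223N) and Vector libraries, a log2 difference of -0.27 from Vector (SE 0.06, edgeR adjusted p = 0.0553).

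By list, PLK2 vs Vector gave a median log2 fold change of 0.06 for 32 other autophagy genes, -0.08 for 29 other lysosomal enzymes and activators, -0.04 for 13 other lysosomal membrane and transport proteins, -0.03 for 13 other pump subunits and -0.01 for 18 nutrient-sensing genes. The smallest p of each list other than nutrient sensing belonged to MAP1LC3B2 (-0.82, SE 0.28, edgeR adjusted p = 0.213), the lipid-transfer activator GM2A (-0.20, SE 0.06, edgeR adjusted p = 0.154), the sialic acid exporter SLC17A5 (-0.20, SE 0.07, edgeR adjusted p = 0.202) and the pump subunit ATP6V1D (0.24, SE 0.06, edgeR adjusted p = 0.0846). None of the 105 was called in PLK2(D223N) vs Vector or in PLK2 vs PLK2(D223N) with 9 libraries. At an unadjusted p below 0.05, 2 were higher and 8 lower in PLK2(D223N) vs Vector, against 5.22% and 3.30% of all genes, and 6 were higher and 6 lower in PLK2 vs PLK2(D223N), against 2.98% and 3.06%. In the 6 libraries of PLK2 and PLK2(D223N) alone, 8 were called higher and 1, RPTOR, lower, 9 of the 105 against 3.92% of all genes. Among the 8 were the cargo receptor TAX1BP1, the kinase TBK1 that phosphorylates OPTN and SQSTM1, the pump subunits ATP6V0C, ATP6V1C1 and ATP6V1E1, FLCN and FNIP1. TAX1BP1 averaged 239 ± 7.85 CPM in PLK2, 217 ± 2.70 CPM in PLK2(D223N) and 211 ± 26.2 CPM in Vector libraries, and its log2 fold change over PLK2(D223N) was 0.14 (SE 0.03, edgeR adjusted p = 0.000897 with 6 libraries).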

How the data were processed

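RNA of 9 libraries was analysed, 3 per group by the sample labels; 1 Vector title has transposed letters and was matched by its number. Per the submitters' processing notes Bowtie2, also RSEM 1.3.1 and DESeq2 1.4.5, were used, with build GRCh38.p13; strand use, annotation and each tool's role are not given. The authors deposited 1 table with estimated counts per gene, of which 87.07 to 88.53% per library lay within 0.005 of a whole number. The authors also deposited TPM, which was used for levels and 1 alternative. The deposited FPKM values and scaled counts (a signal), 18 columns, were not used here, nor were 12 pooled columns.

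Estimated counts were rounded. Genes were kept by filterByExpr, scaled by TMM and tested with edgeR 4.0.16 (glmQLFit, glmQLFTest, robust; R 4.3.3), two-sided, with 1 model over 9 libraries and a call at an adjusted p below 0.05. P-values measure the spread between these libraries, and counting error sets the precision for low genes. Alternatives were DESeq2 1.42.0 size factors or Wald test, no filter beyond 1 count, a strict filter (a mean of 1 CPM and, in all libraries of some group, 10 counts), a replicate term, a fit to the 6 libraries compared, PLK2 removed before scaling, loess trends with GC content and length removed (span 0.3), limma 3.58.1 on log2(TPM + 1) where TPM averaged 1 or more, and each library left out. Refits of the 6 PLK2 and PLK2(D223N) libraries were added after seeing the data. GC content, length and positions came from GENCODE release 29 (GRCh38), and 17025 genes matched RefSeq by NCBI gene identifier.

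The members and gene lists were chosen with earlier results of these data known. Per-library values are given for the member of each role with the smallest p in each comparison, for those with the highest and lowest TPM of each role, and for members called in the 6 libraries or whose PLK2 libraries stood apart. Other pathway genes are named where called or where their p was the smallest of their list, except FLCN, RPTOR, MRNIP, CCDC3 and AP3S1, chosen after their values were seen. Promoter windows were read from RefSeq with Python 3.11.15. The genes MAP1LC3A and GALC were not analysed here, and some other genes of the pathway are not reported here.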

Additional observations from a re-analysis of the deposited data

How the results depend on the processing

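Of 2268 values of the members under an alternative, over 126 comparisons, 103 changed sign (24 on TPM, 22 without Vector replicate 1 and 15 with GC and length trends removed), and those had sizes of at most 0.10 with 9 libraries. No member was called with 9 libraries, so no call could be lost, and 31 values passed the threshold. For the members with the smallest p of their role in a comparison, called in the 6 libraries or called under an alternative, 43 comparisons in all, 9 of 774 values changed sign. The sign changed for LAMP2 in PLK2 vs Vector to -0.03 and for TFE3 to 0.01 with GC and length trends removed. In PLK2(D223N) vs Vector on TPM it changed for SQSTM1 to 0.02, NBR1 to 0.04, OPTN to 0.03 and NEU1 to 0.01. The median over all genes was 0.05 there. With 1 library left out, TFE3 in PLK2 vs Vector ranged from -0.09 to 0.04, and in PLK2(D223N) vs Vector SQSTM1 from -0.11 to 0.04 and OPTN from -0.05 to 0.03. The cause was not tested.

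Genes called in PLK2 vs Vector (66) became 143 with the DESeq2 Wald test, 136 with no filter, 23 with the 6 libraries compared, 379 with GC and length trends removed, 19 on TPM and 13 to 1656 with 1 library left out. In PLK2(D223N) vs Vector (3) they became 9 with DESeq2, 5 with no filter, 8 with trends removed and 2 to 347 with 1 library left out. In PLK2 vs PLK2(D223N) (21) they became 37 with DESeq2, 35 with no filter, 502 with 6 libraries, 92 with trends removed, 11 on TPM and 9 to 317 with 1 library left out.

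Members called, 0 in each comparison, became 1 with DESeq2, 3 with trends removed and 0 to 5 with 1 library left out in PLK2 vs Vector. They became 0 to 2 with 1 library left out in PLK2(D223N) vs Vector. In PLK2 vs PLK2(D223N) they became 7 with 6 libraries, 2 with trends removed and 0 to 7 with 1 library left out. The 7 called in the 6 libraries alone became 3 to 8 with 1 of these left out (3 without PLK2(D223N) replicate 2) and 4 with DESeq2. The median log2 fold change of the members ranged from -0.05 to 0.02 in PLK2 vs Vector and from -0.08 to -0.01 in PLK2(D223N) vs Vector with 1 library left out. On TPM it was 0.00 in PLK2(D223N) vs Vector and -0.01 in PLK2 vs PLK2(D223N).

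Same-numbered libraries of different groups correlated at -0.13 to 0.13, and differently numbered ones at -0.22 to 0.11. No pairing by number was seen, though a weak one could be missed. With a replicate block 76, 4 and 20 genes and 0 members were called in PLK2 vs Vector, PLK2(D223N) vs Vector and PLK2 vs PLK2(D223N). In the 6 libraries alone that block gave 7 members called, and 3.19% of genes. Counts of TFEB and WIPI1 limit what can be seen of them.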
